A study of Arabidopsis thaliana with 6 samples.

Results

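CONSTANS-like (COL) and B-box (BBX) genes encode zinc-finger transcriptional regulators of light signaling, and 10 of them were followed here through the seedling transcriptome of Arabidopsis thaliana. They were chosen by name, as COL1, COL2, COL4, COL5, COL9, BBX18, BBX19, BBX22, BBX24 and BBX25, with earlier results of these data known, and the rule itself used no expression value. A row in the deposited count table was found for 9 of the 10, out of 19616 genes in the table. COL1 (AT5G15850) was not analysed here. The B-box family of this plant was listed with 32 genes, and 18 of the other 22 also had a row.

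B-box proteins carry one or more B-box zinc fingers at the amino end, and the CONSTANS-like members add a CCT domain, through which CONSTANS itself acts on the florigen gene FT in leaf phloem when days are long. In light-grown seedlings, B-box proteins work around HY5, a bZIP activator of light-induced genes. Some act with HY5 and others against it, and several are degraded through the COP1/SPA ubiquitin ligase, which is most active in darkness. Many members are also transcribed with a daily rhythm set by the clock.

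The RNA-Seq libraries came from whole wild-type Col-0 seedlings, shoots and roots ground together, at 7 days after treatment (DAT) and an age of 13 days. Control seedlings (3 libraries) received the saline carrier without bacteria, and treated seedlings (3 libraries) received Priestia megaterium YC4-R4, a soil strain described as plant growth-promoting, in the same carrier. All were grown in soil in a chamber with day and night of equal length, and the sources used here do not give the hour of harvest. The study's methods call the samples biological replicates, and the number of seedlings in each is not stated there.

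The libraries held 10804936 to 20040520 counted reads in the control group and 15292377 to 21904205 in the treated group. Raw counts of the 9 genes ran from 57 for BBX18 to 3971 for COL4. Levels are given below as CPM, read counts scaled to a common library total, after TMM normalization, which rescales each library by its composition. Differences between treated and control seedlings were tested with edgeR's quasi-likelihood test over 19615 genes, with Benjamini-Hochberg adjustment of p over all of them. The terms upregulated and downregulated are used for genes with an adjusted p no larger than 0.05 that also differed by 1.5-fold or more, and a gene that passed the adjusted p alone is described below as higher or lower at the adjusted p only. Defining markers of leaf and root were measured in every library, with 9 of 9 leaf photosynthesis genes and 7 of 10 root genes in the table, and the lowest root value, that of WER, was 1.48 CPM.

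The sequences just upstream of the called genes and of the relative or comparison gene described with each are shown first, since COL2 and BBX24 each carry a sequence motif linked to the clock. They were read from the RefSeq version of TAIR10 (TAIR10.1) on the strand of the gene, 5′ to 3′, ending at or just before the annotated transcript start. COL2 is given from 202 to 8 bases before its start (chr3:489475-489669, minus strand), which is the stretch outside its neighbours' annotations. For the other genes the 300 bases before the start are shown, which are chr2:9125963-9126262 on the plus strand for BBX18, chr4:18160603-18160902 on the plus strand for BBX19 and chr1:1829984-1830283 on the minus strand for BBX24. BBX24 was added to this set after its values were seen. Capitals mark the evening element, AAAATATCT, a motif of clock-regulated promoters that is bound by MYB-like clock proteins such as CCA1, LHY and RVE8.
COL2: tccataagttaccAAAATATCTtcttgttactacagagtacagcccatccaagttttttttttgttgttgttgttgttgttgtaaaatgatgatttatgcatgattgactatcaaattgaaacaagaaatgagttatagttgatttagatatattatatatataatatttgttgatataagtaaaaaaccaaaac
BBX18: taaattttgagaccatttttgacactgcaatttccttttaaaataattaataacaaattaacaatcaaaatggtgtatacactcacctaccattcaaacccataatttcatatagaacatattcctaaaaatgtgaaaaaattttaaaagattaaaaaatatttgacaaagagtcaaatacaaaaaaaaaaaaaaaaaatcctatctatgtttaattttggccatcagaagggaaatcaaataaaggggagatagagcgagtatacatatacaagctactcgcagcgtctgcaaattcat
BBX19: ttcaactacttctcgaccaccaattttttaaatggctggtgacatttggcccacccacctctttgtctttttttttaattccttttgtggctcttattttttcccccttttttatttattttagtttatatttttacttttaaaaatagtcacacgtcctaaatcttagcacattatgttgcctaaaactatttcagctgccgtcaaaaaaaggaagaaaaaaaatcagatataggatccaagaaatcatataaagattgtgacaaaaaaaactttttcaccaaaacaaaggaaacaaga
BBX24: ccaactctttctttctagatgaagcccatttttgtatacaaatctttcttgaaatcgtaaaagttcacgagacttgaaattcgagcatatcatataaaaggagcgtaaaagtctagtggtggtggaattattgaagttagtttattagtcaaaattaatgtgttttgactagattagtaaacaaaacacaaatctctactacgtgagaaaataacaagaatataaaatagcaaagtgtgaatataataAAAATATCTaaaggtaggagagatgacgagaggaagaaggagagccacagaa

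Windows of 300 bases before each annotated start were searched on both strands for the evening element, for the CCA1-binding site AAAAATCT and for the G-box CACGTG, a core site bound by HY5. None of these 3 strings contains another. The evening element lay 189 bases before the start of COL2 and 52 bases before that of BBX24. Of the other B-box genes with a row, the window of COL10 held 3 evening elements and that of BBX13 held 2. Both genes are described below as lower, COL2 as upregulated and BBX24 as not passing the test. CCA1-binding sites lay in the windows of BBX11 (2), BBX27 (1, inside another gene's annotation) and BBX28 (2), and a G-box in that of BBX30. The windows of COL4 and BBX22 held a G-box at 169 bases and a CCA1-binding site at 283 bases before the start, though 250 bases of the BBX22 window, this site included, lie inside the annotation of another gene. No match to these letters was found in the windows of COL5, COL9, BBX18, BBX19 or BBX25, and 295 bases of the BBX25 window belong to another gene. Among 27443 windows of protein-coding genes, 2.79% held the evening element, 7.94% the CCA1-binding site and 7.09% the G-box, and these matches are descriptions of sequence only.

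The 9 genes differed widely in level. Per kilobase of exon, COL4 was the highest in control seedlings at 174 ± 14.2 CPM (SD, n = 3), followed by BBX24 at 91.9 ± 6.93 and COL5 at 61.4 ± 4.07. COL9 followed at 28.8 ± 0.587, then BBX25 at 21.5 ± 0.556, BBX22 at 19.6 ± 0.981 and COL2 at 10.5 ± 0.930. The lowest were BBX18 at 4.84 ± 0.462 and BBX19 at 4.45 ± 0.890 CPM per kilobase, and these were the only neighbours in the order whose control libraries overlapped. In treated seedlings the order was different in the middle. BBX25, at 30.1 ± 0.969 CPM per kilobase, stood above COL9, at 20.4 ± 1.95, while COL9, BBX22, at 18.4 ± 1.01, and COL2, at 18.0 ± 1.07, overlapped with each other. BBX18, at 10.9 ± 1.11 CPM per kilobase, lay above BBX19, at 6.08 ± 0.182, and the libraries of this pair no longer overlapped.

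**Figure D1:**
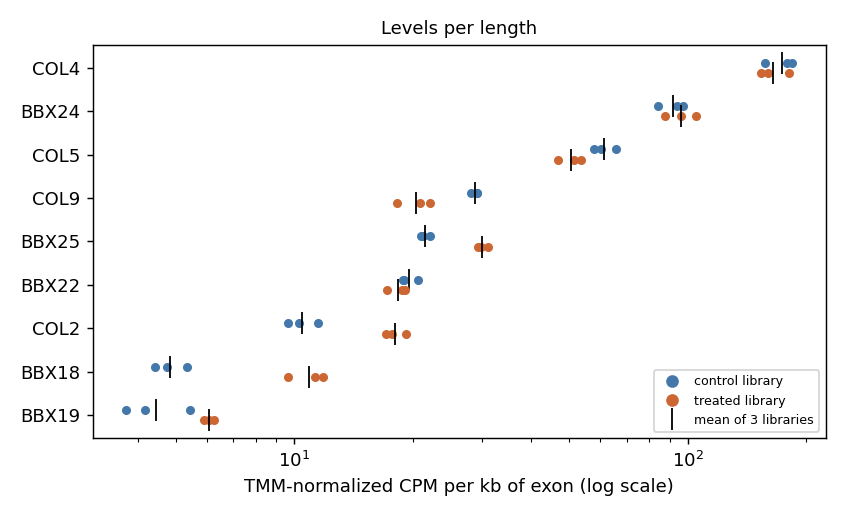
TMM-normalized CPM per kilobase of exon on a log scale for the 9 genes, with 1 point per library (control in blue, treated in orange) and a bar at each mean of 3 libraries. The genes run from COL4, at 174 CPM per kilobase in control seedlings, to BBX19, at 4.45, and BBX25 and COL9 stand in opposite order in the 2 groups.

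Of the 9 genes, 2 were upregulated in treated seedlings, COL2 and BBX18, and 0 were downregulated. By the same limits, 1.73% of the 19615 genes tested were upregulated and 1.54% downregulated. At the adjusted p alone, BBX19 and BBX25 were also higher and COL5 and COL9 lower, which gave 4 higher and 2 lower, against 5.10% and 4.52% of all genes. In the same 6 genes no control library overlapped with a treated one, 4 with all treated libraries above and 2 with all below, where 14.5% and 13.8% of all genes separated in these directions. COL4, BBX22 and BBX24 did not pass the test, so the 9 genes moved in both directions, with a median log2 fold change of 0.07 beside -0.0049 over all genes.

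COL2 (AT3G02380, chromosome 3, 487069 to 489467, minus strand) is a close relative of COL1 and of CONSTANS, and its messenger RNA is known to peak in the morning. COL2 stood at 23.2, 25.9 and 21.8 CPM in control replicates 1, 2 and 3, and at 38.6, 39.9 and 43.3 CPM in treated replicates 1, 2 and 3. Every treated library lay above every control library, with means of 23.6 ± 2.1 and 40.6 ± 2.41 CPM (SD, n = 3 each). This was a 1.72-fold rise (log2 fold change 0.79, SE 0.09, 95% interval 0.60 to 0.97, adjusted p = 0.000163 by edgeR's quasi-likelihood test). Exons of COL2 overlap those of a pair of genes on the opposite strand, AT3G02370 over 212 bases and AT3G02390 over 506 of its 2256 exonic bases. The sources used here do not say whether reads were counted by strand. These neighbours were low, at 3.19 ± 0.734 and 1.58 ± 0.839 CPM in control and 3.60 ± 0.763 and 1.01 ± 0.350 CPM in treated seedlings, and neither passed the test (adjusted p = 0.722 and 0.562, edgeR).

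COL9 (AT3G07650, chromosome 3, 2441565 to 2444532, plus strand) is a repressor of flowering that lowers CONSTANS expression. Its control values of 59.9, 60.1 and 57.9 CPM lay close together, and its treated values were 45.5, 37.6 and 42.9 CPM. All treated libraries were below all control libraries, and treated replicate 2 was the lowest. The means were 59.3 ± 1.21 and 42.0 ± 4.01 CPM, a fold change of 0.711 (log2 fold change -0.49, SE 0.08, adjusted p = 0.00209 by edgeR's quasi-likelihood test), so COL9 was lower at the adjusted p only.

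COL5 (AT5G57660, chromosome 5, 23355337 to 23356989, plus strand) is able to advance flowering in short days when overexpressed. It stood at 90.6, 103 and 94.3 CPM in control and at 80.5, 73.3 and 83.6 CPM in treated seedlings. The groups did not overlap, but the gap between them, from 83.6 to 90.6 CPM, was narrow beside the spread within each. COL5 was lower at the adjusted p only (fold change 0.825, log2 fold change -0.28, 95% interval -0.44 to -0.11, adjusted p = 0.0408, edgeR). This call was lost when any library except control replicate 1 was left out, with adjusted p of up to 0.171.

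COL4 (AT5G24930, chromosome 5, 8589457 to 8590949, plus strand), a repressor of flowering that also affects salt tolerance, was the most abundant of the 9 genes. Its control libraries held 172, 201 and 195 CPM and its treated libraries 174, 167 and 197 CPM, so the groups overlapped over most of their range. The log2 fold change was -0.08 with a 95% interval of -0.26 to 0.11 (adjusted p = 0.662, edgeR), an interval that leaves out changes as large as the fold limit.

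BBX18 (AT2G21320, chromosome 2, 9126263 to 9127987, plus strand) and BBX19 (AT4G38960, chromosome 4, 18160903 to 18163341, plus strand) are a pair of closely related B-box proteins without a CCT domain. Both are known as repressors of photomorphogenesis, the light-driven program of seedling development, and BBX19 also delays flowering by binding CONSTANS. BBX18 stood at 5.20, 5.84 and 4.84 CPM in control replicates 1, 2 and 3, and at 10.6, 12.9 and 12.3 CPM in the treated ones. The lowest treated library was well above the highest control library. With means of 5.29 ± 0.505 and 11.9 ± 1.22 CPM (SD, n = 3 each), BBX18 showed the largest fold change of the 9 genes, a 2.26-fold rise (log2 fold change 1.18, SE 0.13, 95% interval 0.90 to 1.46, adjusted p = 0.000172, edgeR's quasi-likelihood test).

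BBX19 held 9.84, 6.75 and 7.54 CPM in control and 10.7, 11.0 and 11.3 CPM in treated libraries. Control replicate 1 was close to the treated libraries and the other control libraries were clearly lower, so that the control group (8.04 ± 1.61 CPM) spread more than the treated group (11.0 ± 0.329 CPM). BBX19 was higher at the adjusted p only (1.38-fold, log2 fold change 0.46, SE 0.13, adjusted p = 0.0489, edgeR). This call was lost when any library except control replicate 1 was left out, with adjusted p of up to 0.199, and without control replicate 1 BBX19 passed both limits. Ratios of BBX18 to BBX19 were taken from CPM within each library, without division by exon length. They were 0.528, 0.866 and 0.642 in control and 0.991, 1.18 and 1.09 in treated seedlings. The treated ratios were all above the control ones, and an exact permutation test gave p = 0.1, the smallest that 3 against 3 libraries allow. BBX18 and BBX19 transcripts share no identical run longer than 20 bases.

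**Figure D2:**
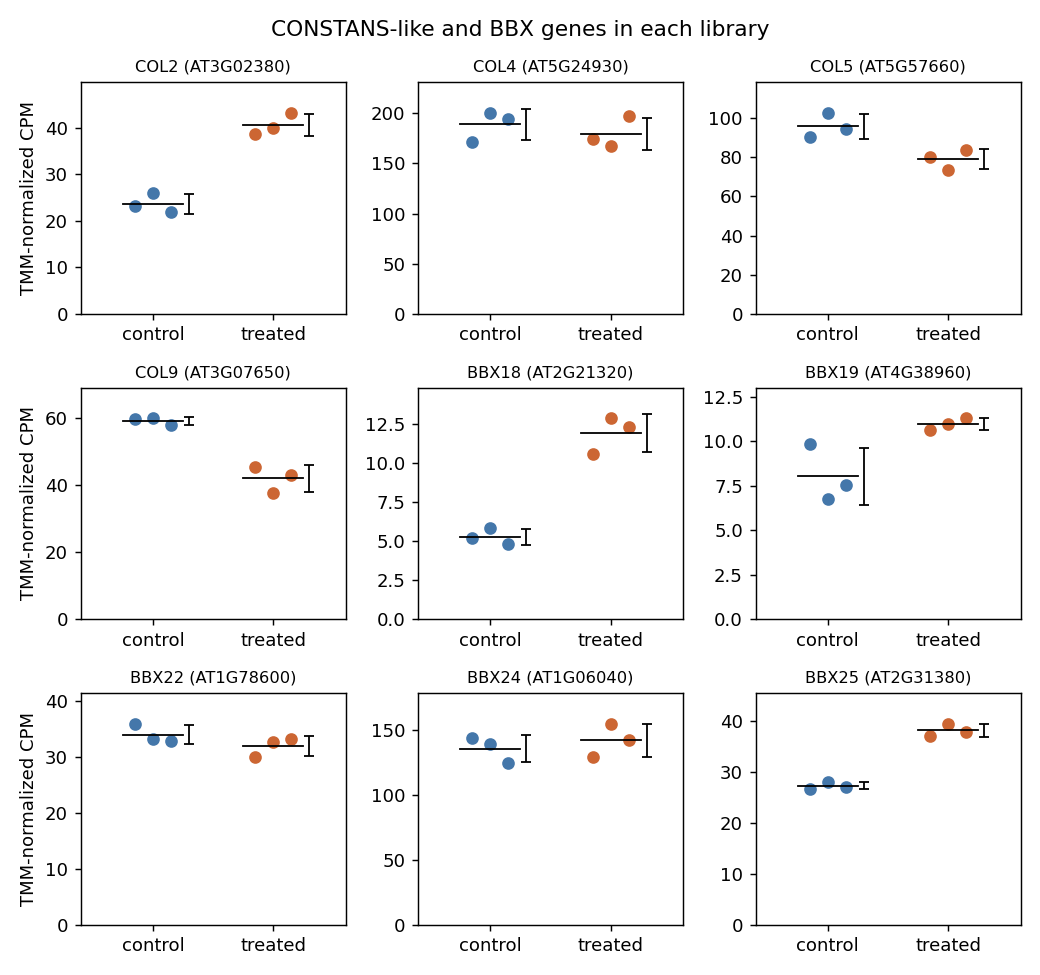
TMM-normalized CPM of the 9 genes in each library, with control libraries in blue, treated libraries in orange, a line at the mean of 3 libraries and a bar of 1 SD on either side. COL2, BBX18, BBX19 and BBX25 have all treated libraries above the control libraries, COL5 and COL9 have them below, and COL4, BBX22 and BBX24 overlap.

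BBX24 (AT1G06040, chromosome 1, 1828340 to 1829983, minus strand) and BBX25 (AT2G31380, chromosome 2, 13381767 to 13383470, plus strand) are the related proteins also called STO and STH, which bind HY5 and lower its activity. BBX25 stood at 26.7, 28.1 and 27.0 CPM in control libraries and at 37.1, 39.5 and 37.8 CPM in treated libraries. Its replicates were tight in both groups and the groups were far apart, with means of 27.3 ± 0.705 and 38.1 ± 1.23 CPM. BBX25 was higher at the adjusted p only, since its 1.40-fold difference lay under the fold limit (log2 fold change 0.48, SE 0.07, 95% interval 0.33 to 0.64, adjusted p = 0.00113, edgeR).

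BBX24 held 144, 139 and 124 CPM in control and 129, 155 and 142 CPM in treated libraries, and these overlapped. Its log2 fold change was 0.07, with a 95% interval of -0.12 to 0.25 (adjusted p = 0.703, edgeR). The ratio of BBX25 to BBX24, likewise from CPM, was 0.186, 0.202 and 0.218 in control libraries and 0.288, 0.255 and 0.267 in treated libraries. All treated ratios were above all control ratios (exact permutation p = 0.1, the smallest possible). The longest identical run that BBX24 and BBX25 transcripts share is 32 bases. BBX24 exons overlap those of an antisense gene, AT1G06045, over 267 bases, and BBX25 overlaps the antisense gene AT2G31390 over 48 bases, which stood at 84.8 ± 2.78 CPM in control and 79.5 ± 4.83 CPM in treated seedlings (adjusted p = 0.461, edgeR).

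BBX22 (AT1G78600, chromosome 1, 29566863 to 29568931, plus strand), also called LZF1 or STH3, acts with HY5 to promote photomorphogenesis. Its control libraries held 35.9, 33.1 and 32.9 CPM and its treated libraries 29.9, 32.6 and 33.2 CPM. The groups overlapped, and the log2 fold change of -0.09 had a 95% interval of -0.26 to 0.08 (adjusted p = 0.544, edgeR). For each of the 6 genes whose groups did not overlap, the exact two-sided permutation test over libraries gave p = 0.1, the smallest this design allows.

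Among the 18 other B-box genes with a row, 2 were upregulated, 0 were downregulated, and the median log2 fold change was -0.13. The adjusted p alone gave 3 higher and 4 lower. Over all genes, 1.73% were upregulated and 1.54% downregulated, and 5.10% were higher and 4.52% lower at the adjusted p alone. BBX31 (AT3G21890), which encodes a small protein with a single B-box, held 0.456, 0.740 and 0.300 CPM in control and 0.907, 1.48 and 1.74 CPM in treated libraries. These rest on 5 to 35 counted reads (log2 fold change 1.52, 95% interval 0.65 to 2.40, adjusted p = 0.0330, edgeR). BBX32 (AT3G21150), a repressor of photomorphogenesis, held 1.73, 1.81 and 2.35 CPM in control and 3.04, 3.08 and 3.67 CPM in treated libraries. Its values came from 19 to 74 reads (log2 fold change 0.69, adjusted p = 0.0467, edgeR). Neither call was stable. BBX31 lost the adjusted p without control replicate 1 or 3 or without treated replicate 2 or 3 (up to 0.190), and BBX32 lost it without any library in turn (0.0543 to 0.151).

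BBX16, also called COL7, was higher at the adjusted p only, at 13.0 ± 0.764 CPM in control and 19.3 ± 2.27 CPM in treated seedlings (log2 fold change 0.56, adjusted p = 0.00677, edgeR). Lower at the adjusted p only was BBX17, also called COL8, at 28.8 ± 4.52 and 19.7 ± 2.53 CPM (log2 fold change -0.55, adjusted p = 0.0135). COL10, the closest relative of COL9 and itself a repressor of flowering, stood at 36.2 ± 1.45 CPM in control and 28.9 ± 1.42 CPM in treated seedlings, and was also lower at the adjusted p only (log2 fold change -0.33, adjusted p = 0.0162, edgeR). COL9 and COL10 share a longest identical run of 27 bases. BBX27 (log2 fold change -0.29, adjusted p = 0.0261) and BBX13 (log2 fold change -0.35, adjusted p = 0.0411) made up the rest of the 4 lower genes, and BBX13 is named to complete that count. When each library was left out in turn, BBX16 passed the adjusted p every time, BBX17 all times except without treated replicate 1 (adjusted p = 0.0680), COL10 3 of 6 times (up to 0.0867), and BBX27 and BBX13 1 of 6 times each (up to 0.107 and 0.206). CONSTANS (CO, AT5G15840) stood at 2.33 ± 0.473 CPM in control and 2.13 ± 0.326 CPM in treated seedlings, with a wide 95% interval of the log2 fold change from -0.59 to 0.36 (adjusted p = 0.806, edgeR). CO was named after its values were seen.

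**Figure D3:**
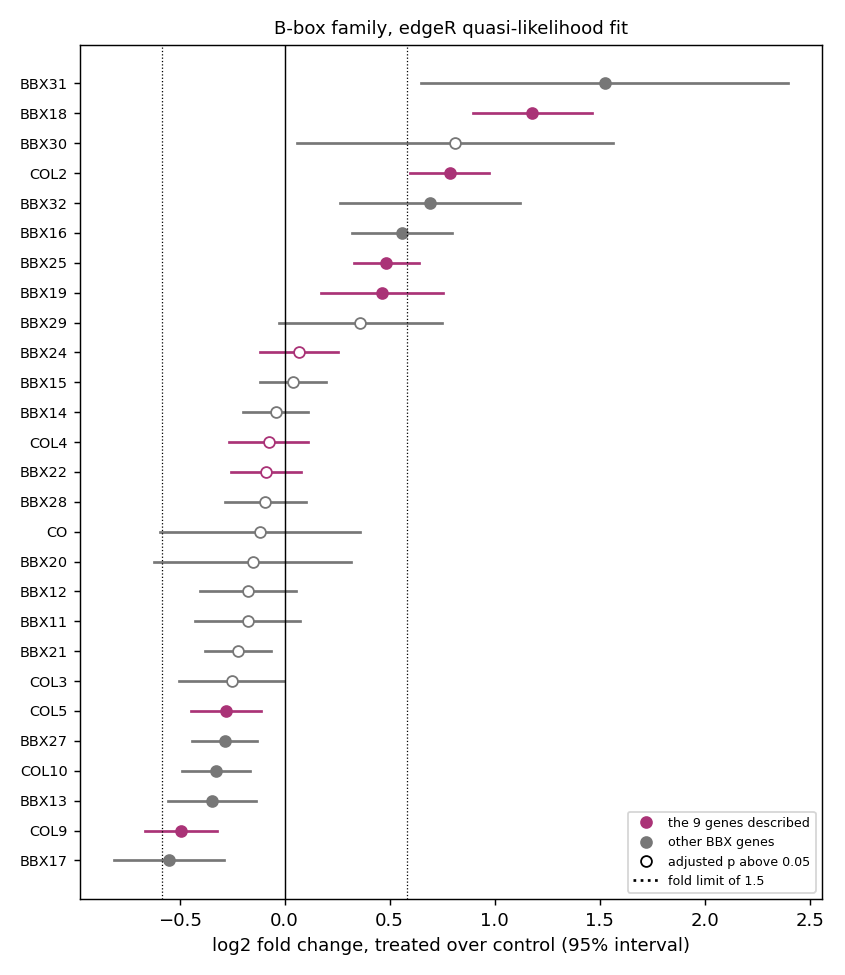
Log2 fold change, treated over control, with its 95% interval for 27 B-box genes, the 9 described genes in magenta and the others in grey. Open circles have an adjusted p above 0.05, and dotted lines mark the fold limit of 1.5. BBX18 and COL2 lie past the limit at 1.18 and 0.79, and COL9 lies at -0.49.

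A list of light signaling genes, named light signaling partners here, held HY5 and HYH, COP1/SPA genes, photoreceptors and other regulators. It was chosen with earlier results of these data known. Of its 17 genes, all in the table, 4 were upregulated and 0 downregulated, against 1.73% and 1.54% of all genes. At the adjusted p alone 8 were higher and 1 lower, against 5.10% and 4.52% of all genes. The median log2 fold change was 0.37, beside -0.0049 over all genes. HYH, the homologue of HY5, stood at 12.8, 10.6 and 10.6 CPM in control and 16.0, 19.4 and 18.0 CPM in treated libraries (log2 fold change 0.66, adjusted p = 0.00322, edgeR). SPA3, a subunit of the COP1/SPA ligase, held 48.5, 47.5 and 43.5 CPM in control and 76.5, 82.2 and 72.4 CPM in treated libraries (log2 fold change 0.73, adjusted p = 0.000113). Both groups of values were clear of each other in HYH and in SPA3. The cryptochrome inhibitors BIC1 (5.42 ± 0.645 to 9.0 ± 1.84 CPM, adjusted p = 0.0174) and BIC2 (24.5 ± 0.493 to 37.9 ± 2.24 CPM, adjusted p = 0.000301) were also upregulated by the edgeR test, though BIC1 did not pass without control replicate 3 (adjusted p = 0.116).

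SPA1, PHYB and SPA4 were higher at the adjusted p only, with log2 fold changes of 0.42, 0.39 and 0.40 (adjusted p = 0.00234, 0.00661 and 0.0104, edgeR), and so was COP1 at 0.32 (adjusted p = 0.0116), which is named to complete the count. SPA4 did not pass without control replicate 3 (adjusted p = 0.0707), nor COP1 without control replicate 2 or 3 (up to 0.0651). The photoreceptor gene PHYA, at 136 ± 3.30 CPM in control and 93.5 ± 6.24 CPM in treated seedlings, was lower at the adjusted p only (log2 fold change -0.54, adjusted p = 0.000548, edgeR). Without treated replicate 1 it passed both limits. HY5 itself, also named after its values were seen, stood at 7.40 ± 1.07 and 9.70 ± 1.88 CPM and did not pass (log2 fold change 0.37, adjusted p = 0.197, edgeR).

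Genes that HY5 is known to activate were tested where a row was found, for 6 of 8 listed. Of these, 5 were upregulated and 0 downregulated, against 1.73% and 1.54% of all genes. Their median log2 fold change was 1.01, beside -0.0049 over all genes. The list was chosen with earlier results of these data known, so its count is a description only. The flavonoid genes FLS1, which encodes flavonol synthase, and CHS, which encodes chalcone synthase, stood at 10.1 ± 1.65 and 95.6 ± 11.5 CPM in control and at 25.5 ± 3.11 and 173 ± 27.7 CPM in treated seedlings (adjusted p = 6.57e-05 and 0.000715, edgeR). CHI, MYB111 and ELIP1 completed the upregulated group, with log2 fold changes of 0.69, 1.16 and 1.26 (adjusted p = 0.00130, 0.000502 and 0.00248). The remaining gene, ELIP2, did not pass (log2 fold change 0.53, adjusted p = 0.273).

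The clock list held 13 genes, 4 upregulated and 0 downregulated, against 1.73% and 1.54% of all genes. At the adjusted p alone 5 were higher and 3 lower, against 5.10% and 4.52% of all genes, and the median log2 fold change was 0.18. The upregulated genes were LHY, CCA1, RVE1 and RVE8, all MYB-like genes that peak around dawn. LHY held 83.5, 80.2 and 78.5 CPM in control and 132, 131 and 119 CPM in treated libraries (adjusted p = 0.000136, edgeR). CCA1 rose from 65.5 ± 4.61 to 104 ± 7.88 CPM, RVE1 from 19.2 ± 1.47 to 31.4 ± 1.67 CPM and RVE8 from 25.2 ± 3.80 to 39.5 ± 6.84 CPM (adjusted p = 0.000280, 0.000305 and 0.00833). RVE8 did not pass the adjusted p without control replicate 3 (0.0621), nor the fold limit without treated replicate 2 (log2 fold change 0.52). Lower at the adjusted p only were PRR7, LUX and TOC1, which peak later in the day, with log2 fold changes of -0.26, -0.33 and -0.28 (adjusted p = 0.0244, 0.0394 and 0.0439, edgeR), and LNK1 was higher at 0.29 (adjusted p = 0.0316). Each of these 4 calls was lost in 5 of 6 fits with 1 library left out, with adjusted p of up to 0.0842, 0.155, 0.151 and 0.158. Whether the hour of harvest had a part in the COL and BBX values was not tested.

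In the photoperiodic flowering list, 9 of 10 genes had a row, and the median log2 fold change was -0.16. Of these, 1 was upregulated and 0 were downregulated, against 1.73% and 1.54% of all genes. CDF1, a repressor of CONSTANS transcription, held 17.3, 13.8 and 15.9 CPM in control and 24.5, 27.4 and 22.0 CPM in treated libraries (log2 fold change 0.65, adjusted p = 0.00272, edgeR), and it fell under the fold limit at 0.57 without control replicate 2 or without treated replicate 2. FKF1, the blue-light receptor that removes CDF proteins, was lower at the adjusted p only, at 30.3 ± 1.76 and 22.1 ± 0.484 CPM (log2 fold change -0.46, adjusted p = 0.00285). TOE1, CDF3 and GI had log2 fold changes of 0.18, 0.16 and -0.16 and did not pass (adjusted p = 0.126, 0.207 and 0.209). FT, named after its values were seen, held 1.79 ± 0.218 and 1.58 ± 0.0740 CPM (adjusted p = 0.651).

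**Figure D4:**
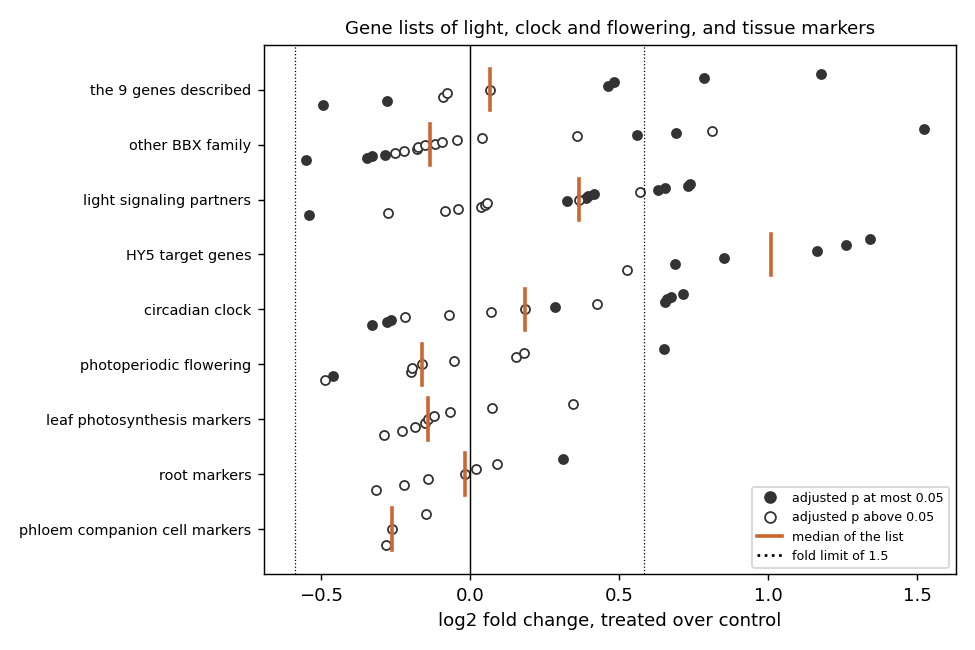
Log2 fold change, treated over control, of each gene in the light, clock, flowering and tissue marker lists, with filled points at an adjusted p of at most 0.05, open points above it, an orange bar at the median of each list and dotted lines at the fold limit of 1.5. The median of the HY5 target genes is 1.01, that of the light signaling partners 0.37 and that of the 9 described genes 0.07.

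In whole seedlings, fewer cells of a type and less RNA per cell cannot be told apart. The summed level of the 9 leaf photosynthesis markers was 35256 to 42206 CPM in control and 33430 to 45714 CPM in treated libraries, and 0 of them passed the adjusted p in either direction in edgeR's test (at an unadjusted p below 0.05, 1 was higher and 1 was lower). The leaf markers are themselves light regulated, so their level does not measure the share of leaf tissue alone. Of 7 root markers, 1 was higher at the adjusted p only, against 5.10% of all genes. This was SCR at 0.31 on the log2 scale (adjusted p = 0.0364, edgeR, and up to 0.149 with 1 library left out, when it passed 1 of 6 times). The sums of the root markers were 65.6 to 68.5 CPM in control and 69.4 to 72.4 CPM in treated libraries, which did not overlap. These sums include SCR, which stood at 25.5 ± 1.78 CPM in control and 31.6 ± 2.16 CPM in treated seedlings. The root markers did not rise as a group, since 3 of the 7 had a log2 fold change above 0 and their median was -0.017. The sums of 3 phloem companion cell markers were 415 to 452 CPM in control and 355 to 411 CPM in treated libraries, which did not overlap either. Of these 3 markers, 0 had a log2 fold change above 0 and 0 passed the adjusted p (at an unadjusted p below 0.05, 0 were higher and 2 lower, edgeR). The part of these tissue markers in the COL and BBX differences was not tested.

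The genes outside the B-box family whose pattern over the 6 libraries was most like that of COL2, the described gene with the smallest adjusted p, were ABCG40, MBP1 and SSL2. Their centred log2 CPM values differed from those of COL2 by a root mean square of 0.0647, 0.0650 and 0.0678. ABCG40, a transporter of abscisic acid, stood at 36.4 CPM in control and 63.2 CPM in treated seedlings, beside 23.6 and 40.6 CPM for COL2.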

How the data were processed

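Per the study's methods, libraries were made with a directional kit, trimming used Trimmomatic 0.36, read quality was examined with Rockhopper, HISAT2 2.1.0 mapped the reads to TAIR10, and HTSeq-count gave counts per gene. The sources used here do not say whether strand was used in the counting. Read counts per gene and library were deposited by the authors as 1 table. It also holds the authors' CPM values and, from their edgeR comparison, a log2 fold change, an average log2 CPM, a p-value and an FDR per gene. These deposited columns were not used, since the comparison columns hold the authors' own results. Every count and CPM column was matched to a sample.

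Counts were tested in R 4.3.3 with edgeR 4.0.16 (filterByExpr, TMM factors of 0.971 to 1.02, quasi-likelihood test, 3 control against 3 treated libraries, no covariate), with alternatives in limma 3.58.1 and DESeq2 1.42.0. The step was tested on simulated data with known changes. Of 50 genes changed 1.25-fold, 13 passed the adjusted p, and of 50 changed 1.5-fold, 45 passed. Among the unchanged genes, 8 passed. The common biological coefficient of variation was 0.0792. No replicate pair was as alike as counting noise alone would give. Levels per length were divided by the merged exons of TAIR10.1 (RefSeq), which also gave coordinates, overlaps and sequences, in Python 3.11.15. The likeness to COL2 used log2 CPM with a pseudocount of 0.5.

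The members and gene lists were chosen with earlier results of these data known. Named are all members, in each list every gene past both limits and up to 4 others with the smallest adjusted p, and the 3 genes most like the member with the smallest adjusted p. Genes outside this rule are marked as named after their values were seen or to complete a count. COL1, the 4 other B-box genes, F3H, MYB12, TSF and 3 root markers without a row were not analysed here.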

Additional observations from a re-analysis of the deposited data

How the results depend on the processing

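COL2, COL9, BBX18 and BBX25 passed the adjusted p in all 16 alternatives tried (other normalizations, filters and tests, the replicate block, and each library left out), with log2 fold changes of 0.72 to 0.86, -0.55 to -0.42, 1.1 to 1.26 and 0.46 to 0.50. COL5 passed in 10 and BBX19 in 7 of 16, and COL4, BBX22 and BBX24 in 0. No sign of the 9 genes changed with the scaling. With the adjusted p alone 4 of them were higher and 2 lower, and with a fold limit of 2 only 1, BBX18, was higher. Over all genes these limits gave 1001 and 98 higher and 887 and 90 lower genes. With both main limits, leaving out 1 library gave 2 to 3 upregulated members. Over all genes it gave 257 to 338 upregulated and 248 to 352 downregulated genes, against 340 and 302 with all libraries.

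The other B-box genes had 1 upregulated gene with a CPM of at least 1 in 3 libraries, 1 with DESeq2, 1 with limma-voom, 0 with the replicate block and 0 to 2 with 1 library left out, which also gave 0 to 1 downregulated. Leaving out 1 library gave 0 to 1 upregulated flowering genes and 0 to 1 downregulated light signaling partners. The cause was not tested.

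The labels number the replicates alike in both groups, but deviations of libraries of the same number correlated at -0.278, -0.376 and 0.229. No library correlated best with its own number. The best matches of control replicates 1, 2 and 3 were treated replicates 2, 3 and 1, at 0.566, 0.347 and 0.261. The numbers were therefore not used as pairs. With the replicate block 2 of the 9 genes stayed upregulated, with 282 upregulated and 265 downregulated genes in all. With this block, COL5 (adjusted p = 0.119) and BBX19 (0.103) did not pass edgeR's test. BBX19 also missed it with upper quartile scaling (0.0502), library size alone (0.0540) and DESeq2 (0.0619). BBX31 rests on 5 to 35 reads per library.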
